A study of Mus musculus with 57 samples.

Results

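The levels of 10 macrophage genes were compared across 6 groups of mice, out of 52853 genes in the count tables. The members were listed by symbol as markers of resident and of lipid-associated adipose macrophages: Adgre1, Cd68, Csf1r, Itgax, Mrc1, Cd163, Trem2, Gpnmb, Spp1 and Cd9. All 10 were found in each table, and none was chosen by a threshold on its values. RNA came from bulk adipose tissue of male C57BL/6J mice that were wild type (WT) or homozygous for a knock-in (KI) of the R707W change in the mitochondrial fusion protein mitofusin 2, encoded by Mfn2. All KI mice descend from 1 CRISPR founder and carry the change in every cell, and they were housed with WT littermates. Diets began at 5 weeks of age and lasted 6 months. Inguinal white adipose tissue (WAT) was sequenced from mice on a high-fat diet (HFD, 45% of energy from fat; 8 WT and 8 KI) and from mice on chow (7 WT and 6 KI), and brown adipose tissue (BAT) from mice on HFD (6 WT and 6 KI). Each mouse gave 1 column of counts, which for inguinal WAT on HFD joins 2 technical replicates.

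Macrophages reside in all adipose depots, where they clear dying cells and take up lipid. In obese tissue, cells that surround dead adipocytes switch on a lysosomal and lipid-handling programme and are called lipid-associated macrophages, whereas resident macrophages near vessels carry scavenger receptors. Survival of both depends on signals through the receptor encoded by Csf1r. Because tissue RNA was pooled from all cells, fewer macrophages and less RNA of a gene per macrophage cannot be told apart.

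Total counts per mouse ran from 17572752 to 25680411 in inguinal WAT on HFD, 8668279 to 11720458 on chow and 8042591 to 10522554 in BAT. Brown adipocyte markers summed to 9006 CPM or more in every BAT sample and to 483 CPM or less in every inguinal one. Mfn2 averaged 162 ± 20.7 CPM in WT and 206 ± 25.3 CPM in KI inguinal WAT on HFD, but a count per gene does not show the edited codon and checks no genotype. Some samples held other tissue. B cell markers exceeded 50 CPM in 7 inguinal samples and skeletal muscle markers exceeded 1000 CPM in 5 samples. The highest sum of muscle markers was 43222 CPM, in KI mouse 4 on chow. A pair of samples stood apart in the members themselves, KI mouse 5 on HFD, which was the highest of its group in 8 of 10 members, and WT mouse 4 on chow, the highest in 9 of 10. Skeletal muscle markers summed to 1614 CPM in KI mouse 5, and B cell markers to 99.0 CPM and epithelial keratins with Epcam to 121 CPM in WT mouse 4. The part of these tissues in the members' values was not tested, and the members' results on these groups are given with and without the mouse.

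Levels are in CPM, counts brought to a common library total and scaled by TMM over all 41 mice, as mean ± SD over the mice of a group, and positions are on GRCm38. Csf1r (ENSMUSG00000024621, chromosome 18), the receptor of the growth factors CSF1 and IL-34, stood in inguinal WAT on HFD at 133 ± 23.3 CPM for WT mice and 125 ± 40.8 CPM for KI mice, 126 ± 39.0 and 94.6 ± 19.6 CPM on chow, and 48.3 ± 9.87 and 44.1 ± 7.44 CPM in BAT. Cd68 (ENSMUSG00000018774, chromosome 11, 69664213 to 69666153), a glycoprotein of late endosomes and lysosomes, had 86.1 ± 27.7 and 59.4 ± 36.0 CPM on HFD, 49.0 ± 35.1 and 34.8 ± 10.5 CPM on chow, and 18.8 ± 10.5 and 13.4 ± 3.20 CPM in BAT. Both markers of the whole macrophage population thus had lower means in BAT than in any inguinal group. Adgre1 (ENSMUSG00000004730, chromosome 17, 57358691 to 57483527), which encodes the surface antigen F4/80, had 34.3 ± 9.45 and 24.3 ± 17.4 CPM on HFD, 29.9 ± 16.6 and 18.7 ± 4.76 CPM on chow, and 8.99 ± 4.43 and 6.96 ± 2.07 CPM in BAT. Itgax (ENSMUSG00000030789, chromosome 7, 128129547 to 128150657), the CD11c integrin chain that marks recruited adipose macrophages and also dendritic cells, had 50.0 ± 19.0 and 18.4 ± 7.41 CPM on HFD, 17.6 ± 22.4 and 6.87 ± 4.38 CPM on chow, and 5.77 ± 3.55 and 2.88 ± 1.03 CPM in BAT. For Itgax in WT mice on chow the SD exceeded the mean, since WT mouse 4 had 66.6 CPM, 7.02 times the mean of the other 6 mice.

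Among the resident markers, Mrc1 (ENSMUSG00000026712, chromosome 2, 14229392 to 14332057), the mannose receptor, had 76.9 ± 16.1 and 68.7 ± 17.1 CPM in WT and KI inguinal WAT on HFD, 68.8 ± 20.7 and 55.5 ± 17.6 CPM on chow, and 16.9 ± 7.58 and 13.6 ± 3.86 CPM in BAT. Cd163 (ENSMUSG00000008845, chromosome 6, 124304656 to 124330527), the scavenger receptor for haemoglobin bound to haptoglobin, had 34.7 ± 12.2 and 46.1 ± 11.7 CPM on HFD, 40.6 ± 11.7 and 27.0 ± 6.92 CPM on chow, and 5.61 ± 1.98 and 3.59 ± 1.28 CPM in BAT. Cd163 differed from the general markers in that its mean was higher in KI than in WT mice on HFD and lower on chow and in BAT.

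Of the lipid-associated markers, Trem2 (ENSMUSG00000023992, chromosome 17, 48346401 to 48354147) encodes a lipid-sensing receptor and had 38.0 ± 24.0 and 14.8 ± 11.9 CPM on HFD, 22.2 ± 30.5 and 7.82 ± 3.84 CPM on chow, and 9.17 ± 6.98 and 4.68 ± 1.69 CPM in BAT. Gpnmb (ENSMUSG00000029816, chromosome 6, 49036546 to 49070929), a membrane glycoprotein of lipid-laden phagocytes, had 163 ± 100.1 and 73.2 ± 65.5 CPM on HFD, 65.0 ± 88.1 and 38.2 ± 23.1 CPM on chow, and 22.7 ± 19.4 and 13.3 ± 9.77 CPM in BAT. Both genes varied widely among mice of 1 group, with coefficients of variation of 63.2% for Trem2 and 61.5% for Gpnmb in WT mice on HFD, against 17.5% for Csf1r and 14.2% for Cd9. Spp1 (ENSMUSG00000029304, chromosome 5, 104435118 to 104441050), the secreted matrix protein osteopontin, was scarce, with 4.72 ± 1.99 and 7.08 ± 11.9 CPM on HFD, 4.46 ± 3.25 and 5.56 ± 2.02 CPM on chow, and 1.63 ± 1.21 and 1.10 ± 1.21 CPM in BAT, where 2 to 32 counts were seen per mouse. Cd9 (ENSMUSG00000030342, chromosome 6, 125460266 to 125494791), a tetraspanin that many other cells carry too, had 85.1 ± 12.1 and 82.6 ± 13.7 CPM on HFD, 71.5 ± 22.2 and 60.9 ± 16 CPM on chow, and 31.6 ± 8.71 and 25.6 ± 8.07 CPM in BAT. Every BAT sample lay below every inguinal HFD sample of its genotype in 8 members for WT and 7 for KI mice. The share of all genes ordered in this way was not determined, so these counts are no result about macrophage genes.

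**Figure D1:**
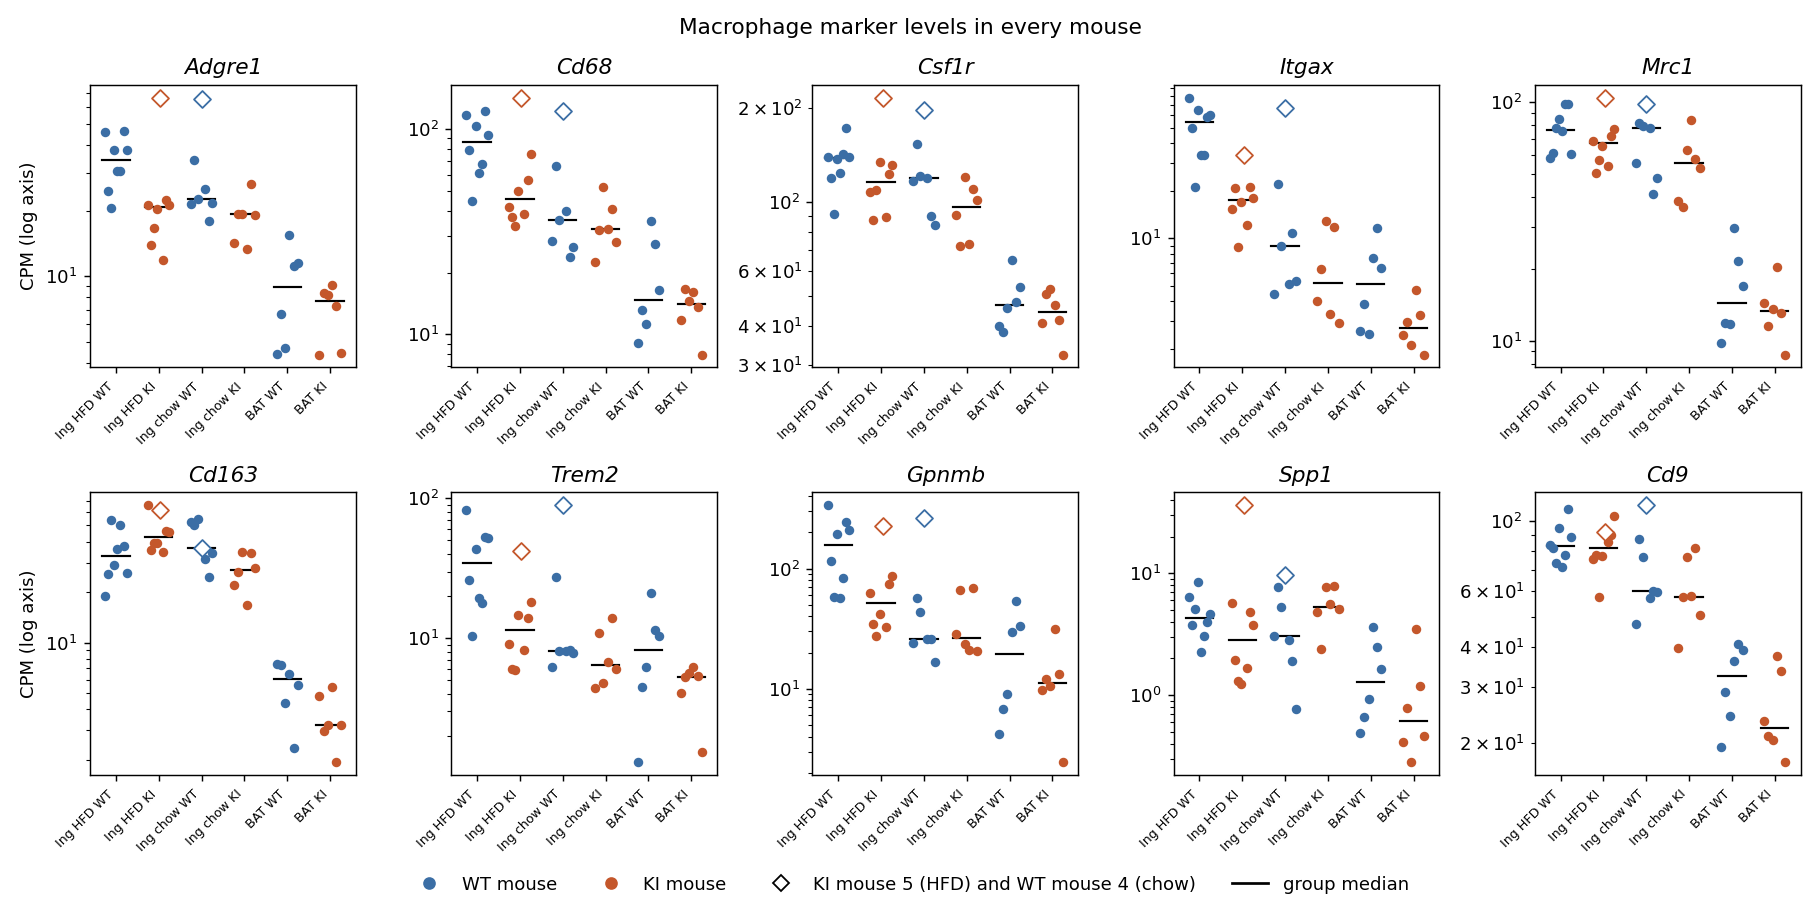
Level of each member in every mouse, in CPM on a log axis, for inguinal WAT (Ing) on HFD and chow and for BAT on HFD, with WT mice in blue, KI mice in orange and black bars at group medians. Open diamonds mark KI mouse 5 on HFD and WT mouse 4 on chow, which lie above the rest of their groups in 8 and 9 of the 10 panels.

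Per kilobase of the gene length given in the tables, the members ranked in WT inguinal WAT on HFD from Cd68 (68.5 CPM per kb) over Cd9 (41.6), Gpnmb (25.0), Csf1r (23.1), Mrc1 (12.1), Adgre1 (10.6), Itgax (10.4), Trem2 (7.68) and Cd163 (6.35) to Spp1 (2.86 CPM per kb). The order depends on that length, 4946 bases for Trem2 and 1257 for Cd68, and the lengths of the transcripts present were not determined. The steps from Cd68 to Cd9, Cd9 to Gpnmb, Csf1r to Mrc1 and Cd163 to Spp1 exceeded the SD of either gene, and the other neighbours in this order did not differ beyond their spread. In KI mice on HFD, Itgax (3.82 CPM per kb) and Trem2 (2.99 CPM per kb) fell in this order behind Cd163 (8.43 CPM per kb) and Spp1 (4.30 CPM per kb). With KI mouse 5 left out, Spp1 averaged 1.77 CPM per kb and lay again below Itgax at 3.38 and Trem2 at 2.20 CPM per kb.

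KI mice were first compared with WT mice in inguinal WAT on HFD, with edgeR's quasi-likelihood test. Genes with an adjusted p under 0.01, by the Benjamini-Hochberg method over all genes tested, are referred to as called. Itgax was the 1 member of 10 called, and it was lower in KI mice. Over all 16471 genes tested, 5.24% were called lower and 6.21% higher. Of the other members, 7 had negative and 2 positive log2 fold changes, with a median of -0.33 over the 10 against 0.01 over all genes. DESeq2 also called Itgax alone among the members.

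Itgax ranged in WT mice from 21.0 CPM over a median of 54.3 to 77.7 CPM, and in KI mice from 8.86 over 17.5 to 33.5 CPM. The groups overlapped through WT mouse 3, the lowest WT mouse, and KI mice 5 and 7, while 6 of 8 KI mice lay below every WT mouse. The fold change was 0.367 (95% interval 0.242 to 0.558), or -1.44 on the log2 scale with a standard error of 0.284 (adjusted p = 0.0018). Itgax was called in all 16 fits with a single mouse removed, at values between -1.63 and -1.34, but not in 1 fit of all 6 groups, where the adjusted p was 0.0157. Trem2 ranged in WT mice from 10.3 over 34.7 to 82.0 CPM and in KI mice from 5.94 over 11.4 to 42.1 CPM. WT mouse 3 was again the lowest of its group and KI mouse 5 the highest of its own, and 4 KI mice lay below every WT mouse. On the log2 scale Trem2 differed by -1.36 (standard error 0.486, adjusted p = 0.0598), which missed the threshold, and that of Gpnmb was -1.15 (standard error 0.502, adjusted p = 0.122). Gpnmb, too, overlapped between genotypes, from 57.2 over 156 to 336 CPM in WT mice and from 27.3 over 52.1 to 227 CPM in KI mice.

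For the general markers, Adgre1 ran from 20.6 over 34.2 to 46.5 CPM in WT mice and from 11.8 over 20.9 to 66.3 CPM in KI mice, where KI mouse 5 exceeded every WT mouse and 4 other KI mice lay below all of them. The difference of -0.50 on the log2 scale (standard error 0.314) did not pass the test (adjusted p = 0.291). Cd68 was distributed in the same way, with 4 KI mice below and 1 above every WT mouse, and the difference was -0.54 (standard error 0.303, adjusted p = 0.235). Csf1r overlapped widely, from 91.6 over 139 to 173 CPM in WT mice and from 87.5 over 116 to 216 CPM in KI mice. Its log2 fold change was -0.10 with a 95% interval from -0.44 to 0.24 (adjusted p = 0.728), so that a fall as large as that of Itgax lay outside the interval. Mrc1 had a log2 fold change of -0.17 (interval -0.48 to 0.15, adjusted p = 0.477) and Cd9 one of -0.05 (interval -0.27 to 0.17, adjusted p = 0.802).

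Cd163 ran from 18.9 over 32.6 to 53.7 CPM in WT mice and from 34.8 over 42.7 to 65.9 CPM in KI mice. The 4 lowest values were from WT mice and the 2 highest from KI mice 1 and 5, and the other mice were mixed. The log2 fold change was 0.40 (interval -0.03 to 0.83, adjusted p = 0.18), which did not pass the test. Spp1 gave a log2 fold change of 0.59 (interval -0.84 to 2.02, adjusted p = 0.598), set by KI mouse 5 at 36.2 CPM, while the other 7 KI mice lay between 1.23 and 5.71 CPM.

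Without KI mouse 5 the differences were larger. That mouse was set apart by its high values of these same members, so fits without it are a description. The level of KI mouse 5 was 12.4 times the mean of the other KI mice for Spp1, 4.42 times for Gpnmb, 3.88 times for Trem2 and 3.63 times for Adgre1, but 1.13 times for Cd9. Without it 3 members were called, all lower in KI mice, where 5.31% of 16557 genes tested were called lower. Adgre1 then had a log2 fold change of -0.92 (adjusted p = 0.00171), Trem2 of -1.81 (adjusted p = 0.00851) and Itgax of -1.63 (adjusted p = 0.000552). Cd68 (log2 fold change -0.86, adjusted p = 0.0123) and Gpnmb (-1.67, adjusted p = 0.0131) narrowly missed the threshold. Cd163 kept a positive value of 0.33 (adjusted p = 0.297) and Spp1 turned to -0.71 (adjusted p = 0.193), and the median over the members was -0.78. KI mouse 5 also held skeletal muscle RNA, and without it and KI mouse 3, the other such mouse of this group, Adgre1 and Itgax were called.

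**Figure D2:**
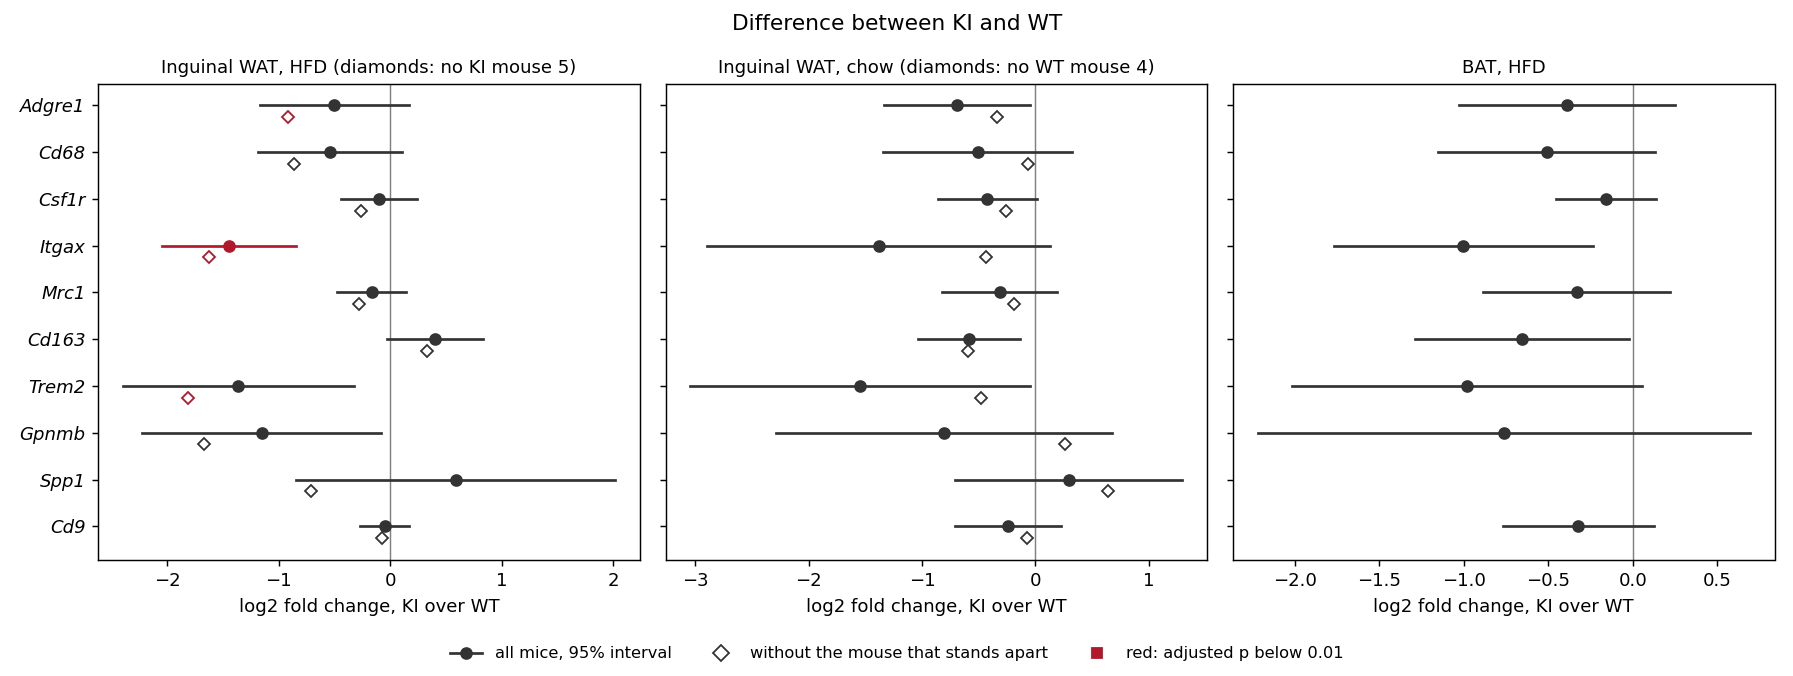
Log2 fold change of each member, KI over WT, in inguinal WAT on HFD, in inguinal WAT on chow and in BAT, with 95% intervals from edgeR, and open diamonds for the fit without KI mouse 5 on HFD or WT mouse 4 on chow. Red marks an adjusted p below 0.01, reached by Itgax on HFD with all mice and by Adgre1, Itgax and Trem2 without KI mouse 5. The mice left out were set apart by their high values of these same members. No value is drawn for Spp1 in BAT, which was too low to be tested, and each panel has its own scale.

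To compare members within a mouse, each was also set against Csf1r, as log2 of the CPM ratio. The mean for Itgax was -1.51 ± 0.479 in WT and -2.81 ± 0.439 in KI mice on HFD, for Trem2 -2.07 ± 0.8286 and -3.33 ± 0.578, and for Gpnmb 0.04 ± 0.818 and -1.07 ± 0.673 (SD, n = 8 each). For Itgax the 2 genotypes barely overlapped, with a lowest WT value of -2.12 in mouse 3 and a highest KI value of -2.06 in mouse 2. KI mouse 5 was not the highest KI mouse for Itgax on this scale, whereas it was for Adgre1, Cd68, Trem2, Gpnmb and Spp1. Adgre1 stood at -1.99 ± 0.226 and -2.51 ± 0.371 and Cd68 at -0.68 ± 0.318 and -1.18 ± 0.347. Mrc1, at -0.80 ± 0.339 and -0.84 ± 0.148, and Cd9, at -0.64 ± 0.176 and -0.56 ± 0.397, were close between genotypes. Cd163 stood higher in KI mice, at -1.42 ± 0.343 against -2.00 ± 0.645 in WT mice. The KI mean without KI mouse 5 was -2.82 ± 0.471 for Itgax, -3.47 ± 0.459 for Trem2, -1.23 ± 0.532 for Gpnmb and -1.36 ± 0.328 for Cd163. The ratios were not tested.

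**Figure D3:**
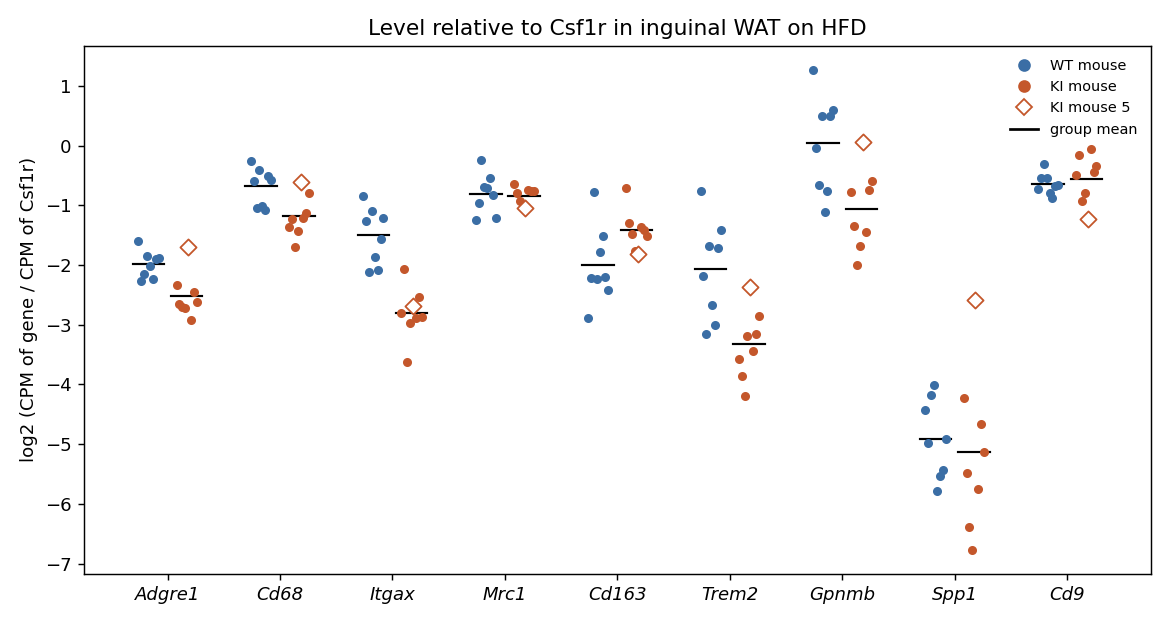
Log2 ratio of each member's CPM to that of Csf1r in the same mouse, inguinal WAT on HFD, with WT mice in blue, KI mice in orange, KI mouse 5 as an open diamond and bars at group means. Itgax averages -1.51 in WT and -2.81 in KI mice, while Mrc1 averages -0.80 and -0.84.

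Over the 16 mice on HFD the members fell into sets by Spearman correlation, which is given as a description, since the mice share the genotype difference and the other tissue in some samples. Cd68 went with Trem2 (rho 0.953), Gpnmb (0.947) and Adgre1 (0.924), and Itgax with Trem2 (0.885). Cd163 went with Mrc1 (0.535) and against Itgax (-0.5) and Trem2 (-0.409), and without KI mouse 5 the last 2 values were -0.536 and -0.511. WT mouse 1, with the highest Trem2 and Gpnmb of all 16 mice, had the lowest Cd163, and WT mouse 3, with the lowest Trem2 of the WT mice, had the highest Cd163 of its group. Among the 16471 genes tested, those most like Csf1r were C1qc (rho 0.956), Sdc3 (0.95), Grn (0.921), Scarb1 (0.918) and Lgmn (0.915), and among those most like Trem2 were Vsig8 (0.988), Slc37a2 (0.968), Anpep (0.959) and Atp6v0d2 (0.959). Without KI mouse 5 the correlation was 0.946 for C1qc and 0.989 for Vsig8.

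Of the 10 members, 8 have an entry in the RefSeq promoter table (GRCm38.p6). The 250 bases before the start were searched on both strands for GAGGAA, the core bound by the myeloid factor PU.1. They were also searched for TGANTCA, a pattern wider than the AP-1 site in that any middle base was allowed. GAGGAA was found in Cd68, Trem2, Mrc1 and Spp1, and in 23.3% of all 32851 promoters. TGANTCA was found in Itgax, Cd68 and Trem2 and in 6.75% of all promoters, and both motifs stood in 1.55%. TGANTCA had no match in Gpnmb, Cd163, Cd9, Mrc1 or Spp1. A link of either motif to the members' levels was not tested. The matches to the 2 motifs did not overlap, and TGANTCA reads alike on both strands. The 3 windows with TGANTCA are shown 5′ to 3′ on the gene's strand, with matches to either motif in capitals, at chr7:128129300-128129549 (plus strand), chr11:69666171-69666420 (minus strand) and chr17:48346151-48346400 (plus strand).
Itgax: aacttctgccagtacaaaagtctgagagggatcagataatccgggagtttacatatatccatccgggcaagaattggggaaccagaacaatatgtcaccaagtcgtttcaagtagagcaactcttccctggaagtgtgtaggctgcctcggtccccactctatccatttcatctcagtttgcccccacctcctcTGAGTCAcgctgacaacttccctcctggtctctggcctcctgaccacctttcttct
Cd68: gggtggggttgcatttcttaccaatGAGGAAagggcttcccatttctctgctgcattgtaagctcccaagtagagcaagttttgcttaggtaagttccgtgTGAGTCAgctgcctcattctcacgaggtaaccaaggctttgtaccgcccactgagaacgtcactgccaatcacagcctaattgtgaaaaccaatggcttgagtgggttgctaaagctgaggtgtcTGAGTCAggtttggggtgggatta
Trem2: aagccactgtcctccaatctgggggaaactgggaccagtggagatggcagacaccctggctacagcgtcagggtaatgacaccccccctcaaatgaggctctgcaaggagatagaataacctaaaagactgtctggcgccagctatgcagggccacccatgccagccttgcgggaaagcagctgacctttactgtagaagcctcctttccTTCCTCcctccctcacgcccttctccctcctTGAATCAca
The TGANTCA letters lie 56 to 50 bases before the start in Itgax, 149 to 143 and 24 to 18 in Cd68, and 9 to 3 in Trem2. The middle base as printed is G in Itgax and Cd68 and A in Trem2. A match is a run of letters and not a shown site of binding, and the data hold no measure of either factor's binding.

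In inguinal WAT on chow, 0 of the 10 members were called by edgeR or by DESeq2, with 3 at an unadjusted p below 0.05. Over all 14629 genes tested, 1.27% were called lower and 1.96% higher. Log2 fold changes were negative in 9 of 10 members, with a median of -0.55 against -0.01 over all genes, and without WT mouse 4 in 8 of 10, with a median of -0.22. Trem2 ran from 6.20 over 8.16 to 89.2 CPM in WT mice and from 4.39 over 6.39 to 14.05 CPM in KI mice. The highest value was that of WT mouse 4, and the next WT mouse, mouse 2, had 27.4 CPM. Trem2 differed by -1.54 (log2 scale, standard error 0.694, adjusted p = 0.19) with all mice and by -0.48 (adjusted p = 0.51) without WT mouse 4. Itgax moved likewise from -1.38 (adjusted p = 0.248) to -0.44 (adjusted p = 0.636), and Gpnmb from -0.81 (adjusted p = 0.507) to 0.26 (adjusted p = 0.734). Cd163 did not depend on that mouse, whose level was the median of its group. It ran from 24.6 over 36.5 to 54.6 CPM in WT mice and from 16.8 over 27.2 to 34.5 CPM in KI mice, and differed by -0.58 (standard error 0.21, adjusted p = 0.0994) with all mice and by -0.59 (adjusted p = 0.122) without. Adgre1 gave -0.69 (adjusted p = 0.172) and, without WT mouse 4, -0.34 (adjusted p = 0.273), and Csf1r -0.42 (adjusted p = 0.218) and -0.25 (adjusted p = 0.378). KI mouse 4 held 43222 CPM of skeletal muscle markers, whose part in these values was not tested. When it was left out, 0 members were called, Cd163 stood at -0.47 and Mrc1 at -0.46, against -0.31 for Mrc1 with all mice.

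In BAT, 9 members passed the filter on low counts and all 9 had negative log2 fold changes, with a median of -0.51 against -0.01 over all genes. edgeR called 0 of the 9, with 2 at an unadjusted p below 0.05, and DESeq2 called 0 of 10, while 0.475% of the 13267 genes tested were called lower and 1.36% higher by edgeR. Itgax ran from 2.49 over 5.17 to 11.7 CPM in WT mice and from 1.84 over 2.70 to 4.68 CPM in KI mice, from 12 to 85 counts per mouse. Of the KI mice, 3 lay below every WT mouse, and KI mice differed by -1.003 on the log2 scale (standard error 0.361, adjusted p = 0.102). Cd163 had a log2 fold change of -0.66 (interval -1.29 to -0.02, adjusted p = 0.19), Trem2, with 8 to 141 counts per mouse, of -0.98 (interval -2.02 to 0.06, adjusted p = 0.23) and Csf1r of -0.16 (interval -0.46 to 0.14, adjusted p = 0.521). Spp1, which was not in the fit, ran from 0.489 to 3.61 CPM in WT and from 0.282 to 3.48 CPM in KI mice (2-sided exact permutation test over 924 divisions, p = 0.31, n = 6 each). WT mice 1, 2 and 3 lay below WT mice 4, 5 and 6 in 9 of 10 members, Cd163 being the exception, and WT mice 1 and 2 had over 1000 CPM of skeletal muscle markers, whose part was not tested.

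Whether the KI effect differed between settings was tested directly. For the difference between diets in inguinal WAT, 0 members were called by edgeR or DESeq2, 1 had an unadjusted p below 0.05, and 0.425% of 17400 genes were called lower and 0.207% higher. That member was Cd163, with a difference (HFD minus chow) of 1.00 on the log2 scale (standard error 0.314, interval 0.36 to 1.64, adjusted p = 0.0803), and of 0.93 (adjusted p = 0.108) without KI mouse 5. For Itgax the difference was -0.07 with an interval from -1.54 to 1.40, too wide to show whether diet altered the fall, and without WT mouse 4 on chow it was -0.99 (adjusted p = 0.344). For the difference between tissues (BAT minus inguinal WAT, both on HFD), 0 members were called by edgeR or DESeq2, 1 had an unadjusted p below 0.05, and 1.24% of 17214 genes were called lower and 1.58% higher. Cd163 was again that member, at -1.02 (standard error 0.369, interval -1.78 to -0.26, adjusted p = 0.0921), and Itgax stood at 0.47 (interval -0.57 to 1.51, adjusted p = 0.647). The 2 tests share the inguinal HFD mice. The labels do not say whether individual mice gave both tissues, which were treated as independent.

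Levels on HFD were then set against chow within each genotype of inguinal WAT. The diets stand in separate tables, with 2 libraries per mouse on HFD and 1 on chow, so that diet cannot be told apart from table. In WT mice edgeR called 0 of 10 members and DESeq2 1, which was Itgax, and 3 had an unadjusted p below 0.05 by edgeR, while 13.1% of the 17400 genes were called higher and 15.2% lower on HFD. Itgax was higher on HFD by 1.45 (log2 scale, standard error 0.49, adjusted p = 0.0193), Gpnmb by 1.28 (adjusted p = 0.0844) and Cd68 by 0.79 (adjusted p = 0.0732). The lowest WT mouse on HFD had 21.0 CPM of Itgax, and on chow mouse 4 (66.6 CPM) and mouse 2 (22.2 CPM) exceeded this, while the other 5 lay at 10.8 CPM or below. Without chow WT mouse 4, 4 members were called higher on HFD, where 14.3% of 17311 genes were called higher. That mouse was set apart by its high values of these same members, so its removal lowers their chow means. The calls without that mouse are therefore a description. The 4 members were Itgax (log2 fold change 2.38, adjusted p = 4.47e-05), Gpnmb (2.33, adjusted p = 0.000876), Trem2 (1.77, adjusted p = 0.006) and Cd68 (1.21, adjusted p = 0.00295). Csf1r (0.21, adjusted p = 0.326), Mrc1 (0.26, adjusted p = 0.288) and Cd163 (-0.26, adjusted p = 0.364) were not called.

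In KI mice, 15.2% of genes were called higher and 15.4% lower on HFD, and Cd163 was the 1 member called. It had 16.8 to 34.5 CPM on chow and 34.8 to 65.9 CPM on HFD, so that the groups did not overlap, by a narrow margin. The fold change was 1.70, or 0.76 on the log2 scale (standard error 0.23, adjusted p = 0.0086), and without KI mouse 5 it was 0.66 (adjusted p = 0.021), which no longer passed. It was also not called without a filter on low counts, or without the samples rich in B cell or in muscle markers. Itgax was higher by 1.39 (standard error 0.538, adjusted p = 0.0389) and Cd9 by 0.43 (adjusted p = 0.0431). All 10 members had positive log2 fold changes with KI mouse 5 and 8 without it, when Adgre1 stood at -0.07 and Spp1 at -0.97.

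**Figure D4:**
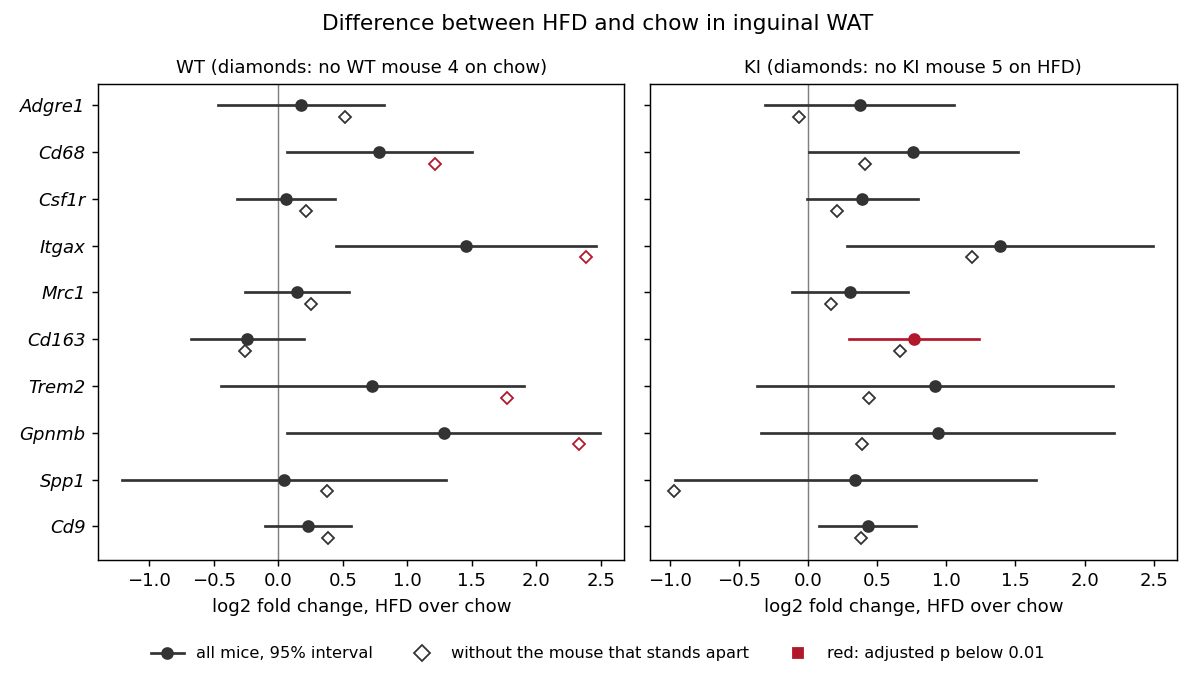
Log2 fold change of each member, HFD over chow, in inguinal WAT of WT and of KI mice, with 95% intervals from edgeR, and open diamonds for the fit without chow WT mouse 4 or without HFD KI mouse 5. Red marks an adjusted p below 0.01, which in WT mice Cd68, Itgax, Trem2 and Gpnmb reach without mouse 4, and in KI mice Cd163 reaches with all mice. The mice left out were set apart by their high values of these same members.

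Other macrophage genes, from lists set beside the members, were read in the same fits. Of all 16471 genes tested in inguinal WAT on HFD, 8102 had negative values and edgeR called 5.24% lower. Of 13 further lipid-associated genes, all 13 had negative log2 fold changes in KI inguinal WAT on HFD, with a median of -0.83, and 5 were called lower by edgeR and 7 by DESeq2. The 5 were Fabp5, a fatty acid binding protein (-0.86, adjusted p = 0.000294), the lysosomal proteases Ctsk (-0.85, adjusted p = 0.00271), Ctsd (-0.65, adjusted p = 0.00342) and Ctsb (-0.37, adjusted p = 0.00641), and Clec7a, the beta-glucan receptor dectin-1 (-0.83, adjusted p = 0.00817). Values ran from Mmp12, macrophage elastase (-1.70, adjusted p = 0.0199), to Lgals3, galectin-3 (-0.17, adjusted p = 0.659). As a description, without KI mouse 5, set apart for its high macrophage markers, 10 of the 13 were called lower, against 5.31% of all genes. Several of these genes, among them Fabp5 and the cathepsins, are also expressed by adipocytes and other cells. On chow 12 of the 13 were tested, 6 with positive and 6 with negative values, and 0 were called by either tool (5 at an unadjusted p below 0.05), and in BAT edgeR called 0 of 11 (5 at an unadjusted p below 0.05) and DESeq2 1, Mmp12 (edgeR -2.20, adjusted p = 0.0256). The KI effect on HFD was below that on chow for Fabp5 (difference -1.41, adjusted p = 0.00422) and Ctsd (-1.30, adjusted p = 0.00463), and that on Ctsd differed between BAT and inguinal WAT (1.19, adjusted p = 0.00149).

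Of 14 general macrophage genes, 13 had negative values on HFD, with a median of -0.30. Mpeg1, which encodes perforin-2, was the 1 called (-0.82, adjusted p = 0.00948), where 5.24% of all genes tested were called lower. The 1 positive value was that of Cd14, the lipopolysaccharide co-receptor, at 0.37 (adjusted p = 0.207). On chow all 14 were negative and 0 were called, with a median of -0.40 with all mice and -0.12 without WT mouse 4. In BAT 9 were negative and 5 positive, with a median of -0.18, and 0 were called. Without KI mouse 5 on HFD, Lyz2, Itgam and Fcer1g were called lower as well. That mouse was set apart by its high macrophage markers and was the highest KI mouse for these genes too. All calls without KI mouse 5 in this paragraph are therefore a description. Of 10 resident macrophage genes, 5 were positive and 5 negative on HFD, from Timd4 (-0.37) to Pf4 (0.37), and 0 were called by edgeR or DESeq2, with 2 at an unadjusted p below 0.05. Without KI mouse 5, Clec10a, a C-type lectin of resident macrophages, was called at -0.47. In BAT 7 of 9 resident genes tested were negative, with a median of -0.24, and 0 were called. On chow 9 of the 10 were negative, with a median of -0.29 with all mice and -0.19 without WT mouse 4. Retnla was called lower in KI mice on chow (-2.53, adjusted p = 0.00755), where 1.27% of all genes tested were called lower. Retnla is a secreted product of alternatively activated macrophages. It ran there from 173 to 806 CPM in WT and from 13.2 to 117 CPM in KI mice, without overlap. Without WT mouse 4 the difference was -2.61 and missed the threshold (adjusted p = 0.0101). Of the 7 inflammatory genes 6 could be tested on HFD, and edgeR called 0 (2 at an unadjusted p below 0.05) and DESeq2 1, Ccl4 (edgeR -0.98, adjusted p = 0.0213). Once KI mouse 5 was left out, edgeR called Ccl4, a chemokine, as well (-1.27, adjusted p = 0.00163).

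Ligands and partners of the members were read last. Csf1, the growth factor that binds Csf1r, was the 1 gene of these 8 called in KI inguinal WAT on HFD. It was called higher (log2 fold change 0.64, standard error 0.098, adjusted p = 0.000113), where 6.21% of all genes tested were called higher. Csf1 ran from 43.2 over 47.3 to 70.8 CPM in WT mice and from 66.4 over 76.7 to 95.3 CPM in KI mice. The values of the 2 genotypes overlapped between 66.4 and 70.8 CPM, and without KI mouse 5 the log2 fold change was again 0.64. On chow Csf1 had a log2 fold change of -0.04 (adjusted p = 0.903), and the KI effect differed between BAT and inguinal WAT (-0.94, adjusted p = 0.000895). Il34, the other ligand, had 0.36 (adjusted p = 0.0241) on HFD and -0.53 (adjusted p = 0.0397) on chow. Itgb2, the chain with which Itgax pairs, had -0.69 (adjusted p = 0.116) with all mice and -0.88 (adjusted p = 0.041) without KI mouse 5. Tyrobp, the adaptor of Trem2, had -0.56 (adjusted p = 0.112) with all mice and -0.77 (adjusted p = 0.00907) without KI mouse 5. That mouse was set apart by its high macrophage markers, so values without it are a description.

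**Figure D5:**
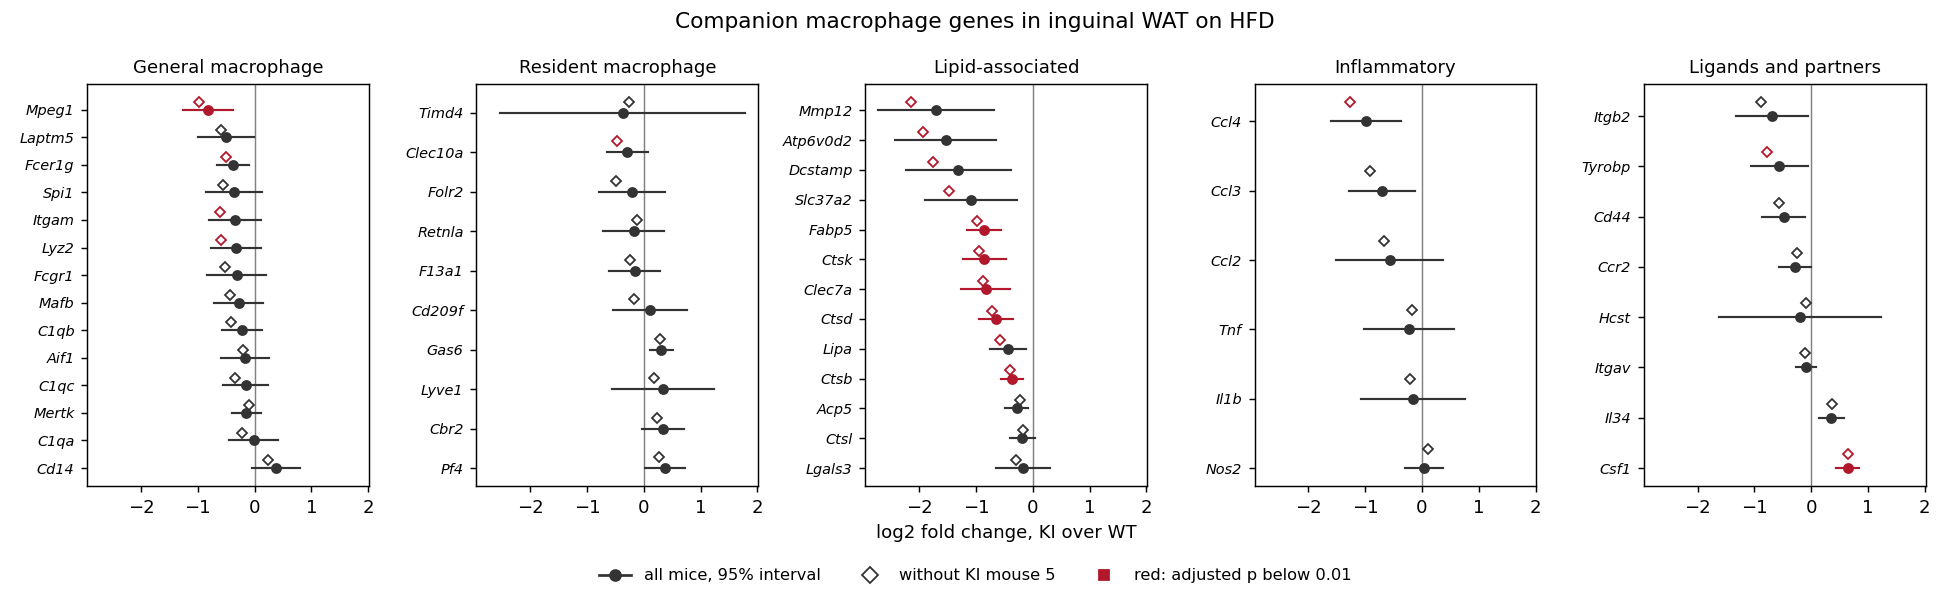
Log2 fold change, KI over WT, in inguinal WAT on HFD for further macrophage genes in 5 lists, with 95% intervals from edgeR, and open diamonds for the fit without KI mouse 5. All 13 lipid-associated genes lie below 0 and 5 of them are red (adjusted p below 0.01), while the 10 resident genes lie on both sides of 0. Over all genes tested, 5.24% were called lower. KI mouse 5 was set apart by its high macrophage markers.

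Markers of other cells in the tissue moved as well on HFD. All 4 mast cell genes were called lower in KI mice, with a summed level of 23.1 to 57.6 CPM in WT and 10.4 to 33.5 CPM in KI mice. On chow the same 4 genes had positive values, and 1 was called higher, where 1.96% of all genes tested were called higher. The sums on chow were 12.0 to 44.2 CPM in WT and 20.4 to 119 CPM in KI mice. In BAT all 4 were positive and 0 were called. For the diet difference of the KI effect, 1 of the 4 was called lower, where 0.425% of all genes tested were called lower. On HFD single genes of other lists were called too. They were lower for S100a8 of neutrophils (-1.91), Ncr1 of natural killer cells (-1.44) and Dct of melanocytes (-1.32), and higher for Cidea of brown adipocytes (1.55). Of 2 neutrophil genes tested 1 had a positive value, as had 1 of 3 melanocyte genes. Of the natural killer genes tested 2 of 2 were negative, and of the brown adipocyte genes 2 of 2 were positive. Without KI mouse 5, 1 brown adipocyte gene was called higher and 1 lower. Over all genes tested, 5.24% were called lower and 6.21% higher with all mice. Of 6 dendritic cell genes 4 had negative and 2 positive values, and their sum was 39.9 to 102 CPM in WT and 40.3 to 128 CPM in KI mice. Of the 5 adipocyte genes Adipoq was called lower (-0.85) and Lipe higher (0.54), and the sum of the 5 was 7474 to 9961 CPM in WT and 6748 to 10581 CPM in KI mice. All 4 mast cell genes were also called without KI mouse 5. The part of these cells in the members' values was not tested.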

How the data were processed

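RNA was sequenced from adipose tissue of 41 mice, listed as 57 samples. Per the labels and the study's methods, polyadenylated RNA was read in pairs, trimmed with cutadapt, aligned with STAR to GRCm38 and counted per gene with featureCounts; versions, the strand setting and how the 2 technical replicates per mouse were joined are not given in the sources used here. The authors deposited raw counts per gene in 3 tables. Of 54838 entries, 1884 without a value and 101 repeated symbols were dropped, leaving 52853 genes.

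Differences were tested with edgeR 4.0.16 (limma 3.58.1, R 4.3.3), by robust quasi-likelihood fits after filterByExpr and TMM scaling, at a Benjamini-Hochberg adjusted p below 0.01 over all genes tested; DESeq2 1.42.0 was an alternative. The fits were tested on simulated data. The p-values measure the spread between mice. Genotypes were compared within each table, and diets in 1 fit of both inguinal tables.

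Each member was named with its values; genes most like Csf1r and Trem2 were the 5 with the highest Spearman correlation, of which 1 is not reported here. The members and gene lists were chosen with earlier results of these data known. Alternatives were other scalings, filters, thresholds and fits, a replicate block and leaving out mice; those leaving out mice rich in other tissue or in macrophage RNA were chosen after seeing the data.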

Additional observations from a re-analysis of the deposited data

Results flagged for a closer look

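In 12 of 60 sets of 1 member in 1 group, a single mouse lay apart from the others by Dixon's criterion, each time the highest. For normally distributed values chance gives about 5% in a single set, but the CPM used here were not on a log scale. The sets also share mice and correlated genes and all 12 come from 3 mice, so their number is a description. KI mouse 5 in inguinal WAT on HFD was that mouse for Adgre1 (66.3 CPM), Cd68 (142 CPM), Csf1r (216 CPM), Trem2 (42.1 CPM), Gpnmb (227 CPM) and Spp1 (36.2 CPM). WT mouse 4 in inguinal WAT on chow was that mouse for Adgre1 (65.7 CPM), Itgax (66.6 CPM), Trem2 (89.2 CPM) and Gpnmb (262 CPM). KI mouse 4 in BAT was that mouse for Gpnmb (31.7 CPM) and Spp1 (3.48 CPM, 32 counts).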

How the results depend on the processing

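Of 1023 values of single members under an alternative, 974 kept their direction and their side of the threshold, 30 turned their direction, 14 newly passed and 5 no longer passed. In inguinal WAT on HFD, Spp1 turned to -0.64 with DESeq2, -0.46 with the replicate block and -0.57 without the muscle-rich mice, and ran from -0.71 to 0.76 with 1 mouse left out. Cd9 was 0.0049 without the muscle-rich mice and ran from -0.10 to 0.013. On chow Gpnmb ran from -1.06 to 0.26 and was 0.39 without the B cell-rich mice. Between diets in KI mice, Adgre1 was -0.067 without KI mouse 5 and -0.13 without the muscle-rich mice, and Spp1 -0.97 and -0.85. For the diet difference of the KI effect, without the B cell-rich mice, without the muscle-rich mice and without both macrophage-rich mice, Adgre1 was -0.20, -0.28 and -0.56, and Trem2 -1.10, -0.20 and -1.32. Spp1 was -0.87 without the muscle-rich and -1.33 without both macrophage-rich mice, when Mrc1 was -0.075. With KI mouse 5 or chow WT mouse 4 left out, Adgre1 ran from -0.22 to -0.15, Trem2 from -0.87 to -0.28 and Spp1 from -0.9997 to -0.048. The tissue difference without KI mouse 5 was 0.14 for Csf1r and 0.21 for Spp1. The cause was not tested.

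Genes called in inguinal WAT on HFD numbered 1886, 1242 in a fit of all 6 groups, 3448 at a threshold of 0.05 and 1460 to 2338 with 1 mouse left out, and members 1, 0 in the fit of all groups, 2 without the muscle-rich mice and 1 to 3 with 1 mouse left out. On chow 472 genes were called, 1107 with DESeq2, 1088 in the fit of all groups, 1252 at 0.05, 127 with the replicate block and 288 to 497 with 1 mouse left out (288 without WT mouse 2, 289 without WT mouse 3, 297 without WT mouse 6 and without KI mouse 2, 302 without KI mouse 6). In BAT 243 genes were called, 717 with DESeq2, 834 in the fit of all groups, 952 at 0.05 and 134 to 313 with 1 mouse left out (161 without WT mouse 3, 148 without WT mouse 4, 134 without WT mouse 6, 144 without KI mouse 2). Members called between diets in WT mice numbered 0, 1 with DESeq2, in the fit of all groups and at 0.05, 2 without the B cell-rich mice and 4 without chow WT mouse 4, and in KI mice 1, 3 at 0.05, and 0 without a filter, without KI mouse 5 and without the B cell-rich or muscle-rich mice. The diet difference had 110 genes called, 409 with DESeq2, 168 with at least 10 counts in every mouse and without both macrophage-rich mice, 500 at 0.05, 55 without the B cell-rich mice and 97 to 206 without KI mouse 5 or chow WT mouse 4. The tissue difference had 485 genes called, 848 with DESeq2, 1280 at 0.05 and 297 without the muscle-rich mice.

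Replicate numbers were not taken to pair the mice, since not every pair correlated above 0.1. Same-numbered mice did so in 2 of 8 pairs on HFD, 2 of 6 on chow and 3 of 6 in BAT. Their highest correlations were 0.654, 0.179 and 0.432. In the same order, 1, 0 and 3 KI mice correlated best with the WT mouse of their own number. With the block 1, 0 and 0 members were called. Low counts limit Spp1, Trem2 and Itgax in BAT.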
